A study of Mus musculus with 8 samples.

Results

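The chemokines, interleukins and their receptors were taken as all genes of the deposited table whose names begin with Ccl, Ccr, Cxcl, Cxcr, Cx3c or Ackr, or with Il followed by a digit. The rule found 60 of 13677 genes: 13 CC chemokines, 7 CXC and CX3C chemokines, 6 chemokine receptors, 4 atypical chemokine receptors (Ccrl2 among them), 6 interleukins, 22 interleukin receptor chains, and Il18bp and Il4i1. Poly(A) RNA of mouse ventricular heart tissue had been sequenced in 8 libraries, labelled DKO (n = 3), KO (n = 2, numbered 1 and 3) and C (n = 3). The series sets Vhl-deficient ventricles against wild-type ones in a Wt1-Cre mouse model, in which Cre recombinase is driven by Wt1, a gene of the epicardium and of cells derived from it, and Vhl encodes the von Hippel-Lindau protein that marks hypoxia-inducible factors for degradation. The labels give ventricular heart as the tissue of every library and state that no treatment was applied. They do not spell out C, KO or DKO, the second change in DKO, whether C carried Cre, or the age, sex or number of animals, and a KO library numbered 2 was not analysed here. Since no label ties the libraries to separate animals, the p-values set group differences only against the spread among these samples, and that spread may be technical.

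Chemokines are small secreted proteins that guide leukocytes through receptors coupled to G proteins, while the atypical chemokine receptors bind the same ligands without that signal and mostly take them up for degradation. Interleukins act through paired receptor chains, many of which signal through JAK kinases and STAT factors, and chains such as Il6st (gp130), Il2rg and Il4ra are shared between several cytokines. In the heart, resident macrophages, infiltrating monocytes, endothelium and fibroblasts are known sources of these ligands and receptors.

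The promoters of 4 members are shown because the results below turn on them: Ackr2 and Cxcl14 had the largest increase and the largest decrease in KO, and Ackr4 and Il13ra1 were among the members that passed both in KO versus C and in DKO versus KO. Each runs 5′ to 3′ from 250 bases before to 50 bases after the gene's start, from RefSeq on GRCm38.p6, and capitals mark motif matches on either strand.
Ackr2 promoter, chr9:121898105-121898404, plus strand: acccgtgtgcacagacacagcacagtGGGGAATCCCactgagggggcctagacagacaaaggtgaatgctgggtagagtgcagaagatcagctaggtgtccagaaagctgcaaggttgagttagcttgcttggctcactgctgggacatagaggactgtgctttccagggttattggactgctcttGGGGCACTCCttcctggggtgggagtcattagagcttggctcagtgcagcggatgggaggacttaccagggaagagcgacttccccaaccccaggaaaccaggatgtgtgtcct
Ackr4 promoter, chr9:104126594-104126893, minus strand: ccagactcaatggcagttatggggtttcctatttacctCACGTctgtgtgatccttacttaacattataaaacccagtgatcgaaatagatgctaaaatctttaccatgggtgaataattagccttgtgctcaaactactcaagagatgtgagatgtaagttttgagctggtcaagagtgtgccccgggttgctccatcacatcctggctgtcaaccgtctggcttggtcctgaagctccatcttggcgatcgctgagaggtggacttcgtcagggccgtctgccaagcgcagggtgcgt
Il13ra1 promoter, chrX:36111858-36112157, plus strand: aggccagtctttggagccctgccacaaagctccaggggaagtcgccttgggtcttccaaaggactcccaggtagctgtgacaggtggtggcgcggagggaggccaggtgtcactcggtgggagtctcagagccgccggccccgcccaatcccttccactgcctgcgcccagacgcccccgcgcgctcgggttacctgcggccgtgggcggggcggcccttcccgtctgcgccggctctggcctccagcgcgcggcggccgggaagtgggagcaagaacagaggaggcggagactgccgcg
Cxcl14 promoter, chr13:56296502-56296801, minus strand: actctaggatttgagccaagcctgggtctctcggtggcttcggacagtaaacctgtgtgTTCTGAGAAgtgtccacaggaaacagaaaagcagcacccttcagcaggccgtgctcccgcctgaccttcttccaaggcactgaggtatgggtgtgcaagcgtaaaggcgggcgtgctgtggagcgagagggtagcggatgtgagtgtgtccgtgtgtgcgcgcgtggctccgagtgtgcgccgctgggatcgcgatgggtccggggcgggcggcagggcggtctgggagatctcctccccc
The motifs searched were ACGTG, the core letters bound by hypoxia-inducible factors, TTCNNNGAA, the letters bound by STAT factors, and the NF-κB consensus, and no match overlapped another in these 4 windows. Ackr2 held 2 matches to the NF-κB consensus, 224 and 64 bases before the start, Ackr4 held 1 ACGTG 212 bases before it, Cxcl14 held 1 TTCNNNGAA 191 bases before it, and Il13ra1 held none of the 3. These distances are from the RefSeq starts. GENCODE M21 starts Ackr4 at 104126933 on the minus strand, so the whole Ackr4 window and its ACGTG lie inside the gene as placed there. RefSeq gave 57 promoters for 45 of the 60 members, matched by gene name. The window named Ccl21b, with 1 ACGTG, is on chromosome 4, while the member Ccl21b lies on GL456350.1. ACGTG was in 9 of these 57 (15.8%) and in 19.7% of all 32544 promoters, TTCNNNGAA in 2 (3.51%) and in 8.33%, and the NF-κB consensus in 10 (17.5%) and in 4.53%. A match is a run of letters, not a bound site, and alternative promoters of 1 gene share letters.

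Levels below are the deposited signal, a count scaled by TMM library size (the CPM scale) in which 0.5 had been added to the reads by the authors. Differences are on the log2(signal + 1) scale, which understates changes of low genes, with their SE and Benjamini-Hochberg adjusted p from limma over 13544 tested genes, and a gene passed at an adjusted p under 0.05. The libraries held 15028176 to 21202385 reads, and 3 reads, the most that a gene with none could hide, corresponded to a signal of 0.104 to 0.283, which covers counting error only. DKO 2 stood apart, with 41.6% of its reads from the mitochondrial genome against 16.2% to 29.9% in the other 7 libraries, and with 51.5% in its 10 most abundant genes. Vhl itself was at 11.2, 10.9 and 8.61 in DKO and at 8.33 and 8.96 in KO, against 8.97, 7.50 and 7.26 in C, so its whole-gene level did not check the labels. All 10 ventricular cardiomyocyte markers were present, with summed signals of 40254 to 67326 in DKO and 42377 to 47652 in KO, against 67345 to 70818 in C. Of 12 immediate early and handling genes, which respond within minutes to tissue handling, 4 passed as higher in KO versus C, 5 in DKO versus C and 4 in DKO versus KO, with sums of 332.5 to 565 in DKO and 280.4 to 287 in KO, against 159 to 224 in C. Their part in the values below was not tested. Gene positions are those of GENCODE M21 on GRCm38.

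The members were a small and mostly low-level part of the transcriptome. Together they summed to a signal of 958, 901 and 769.6 in DKO and 951 and 812 in KO, against 891, 782 and 784 in C, so the groups overlapped on that scale. Per 10000 reads in the table, without the TMM scaling, they took 10.1, 6.33 and 6.65 in DKO and 13.03 and 11.03 in KO, against 8.23, 7.52 and 7.27 in C. There both KO libraries lay above the other 6. Those 2 libraries also had the lowest mitochondrial shares, 16.2% and 17.4%, against 22.9% to 41.6% in the other 6. Their TMM factors were 1.37 and 1.36, against 0.705 to 1.06. The part of this composition in the unscaled shares was not tested. Of the 60 members, 41 had a mean signal under 10 and 18 under 2, and 5 reached 50. Per kilobase of the longest transcript, Il11ra1 (35.6), Cxcl12 (31.1), Ccl21a (28.8), Il10rb (21.6) and Ackr3 (20.2) had the highest mean levels over all libraries, followed by Il6st (12.7), Ccl6 (8.09) and Il15 (7.79). The median over members of the ratio of the highest to the lowest library was 1.76 over the 3 DKO libraries, 1.29 over the 2 KO libraries and 1.45 over the 3 C libraries.

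In the libraries labelled KO, set against C, 7 of 59 tested members rose and 5 fell (20.3% together, against 13.9% of all tested genes, with 6.9% higher and 7.01% lower). Ackr2, Ackr4, Cx3cl1, Ccl8, Ccr2, Il13ra1 and Il4ra rose. Il11ra1, Ccl27a, Ccl24, Il15 and Cxcl14 fell. The median member difference was 0.16, with 39 of 59 above 0, against 0.0082 and 50.7% above 0 over all tested genes. In 20 members both KO libraries lay above all C libraries (27.5% of all tested genes), and in 8 both lay below (26.7%). Without KO 1 the counts were 2 higher and 2 lower, without KO 3 they were 3 and 2, without C 1 5 and 3, without C 2 4 and 3, and without C 3 5 and 3. Of the 12 members called, Ackr2, Cxcl14 and Cx3cl1 passed under all 20 alternatives tried, and each of the other 9 missed the threshold under at least 1. In bulk tissue, fewer cells of a type and less RNA per cell cannot be told apart.

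**Figure D1:**
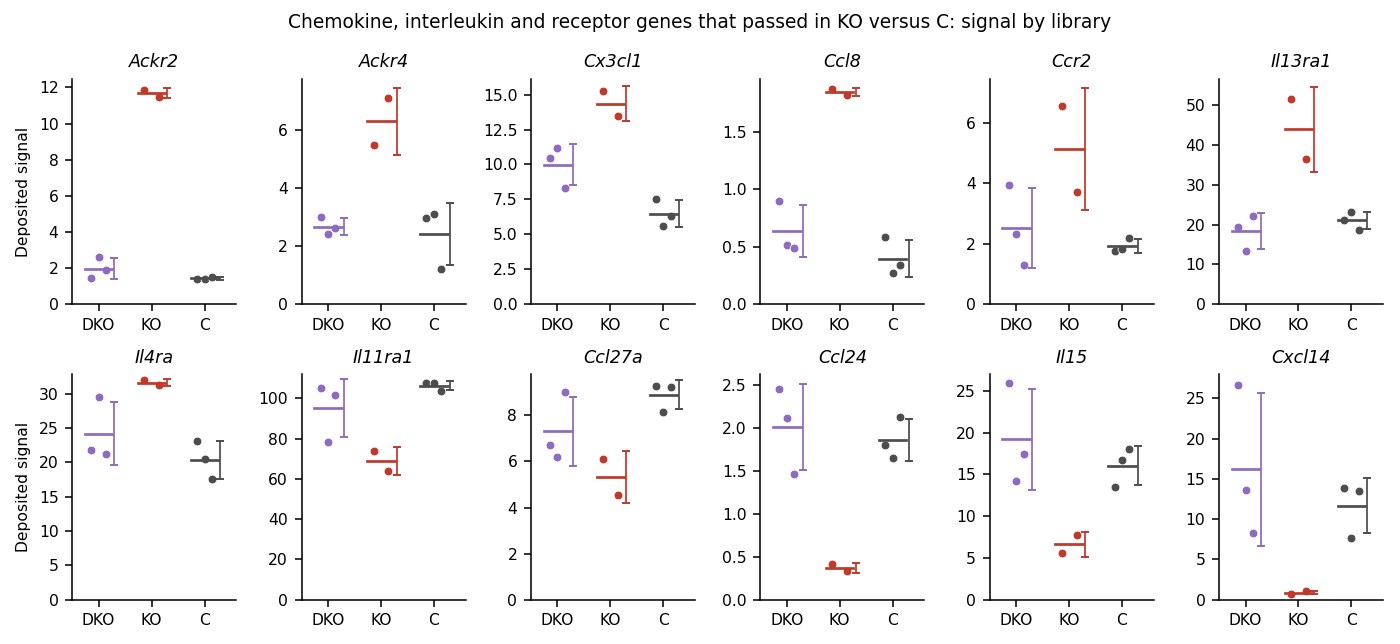
Deposited signal (vertical axis, each from 0) of the 12 members that passed in KO versus C, by group (DKO, KO, C). Points are libraries, horizontal lines group means and bars SD (n = 3, 2 and 3); for Ackr2 both KO libraries, at 11.9 and 11.5, lie far above the 6 others, and for Cxcl14 both, at 0.728 and 1.02, lie far below them.

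The CC chemokines recruit monocytes, eosinophils and lymphocytes, and most were expressed at low levels. Among 13 tested, 1 rose and 2 fell in KO (23.1% together, against 13.9% of all tested genes). Ccl8, a chemoattractant of monocytes and T cells (ENSMUSG00000009185, chromosome 11, 82115185 to 82116799, plus strand), stood at 1.87 and 1.82 in KO, against 0.582, 0.271 and 0.340 in C. These signals rest on 47 and 52 reads in KO and on 9, 4 and 5 reads in C, and the groups did not overlap. The difference was 1.03 ± 0.24 (SE; limma, adjusted p = 0.0147), and it missed the threshold without KO 1 (0.0945), without KO 3 (0.110) or without C 2 (0.0537).

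Ccl24, an eosinophil attractant also called eotaxin-2 (ENSMUSG00000004814, chromosome 5, 135569937 to 135573049, minus strand), moved the other way. It had 0.413 and 0.329 in KO, against 1.81, 1.66 and 2.13 in C, from 10 and 9 reads in KO and from 29, 27 and 34 reads in C. Every KO library was below every C library, and mean signals were 5.02-fold lower in KO (difference -1.06 ± 0.23 (SE; limma, adjusted p = 0.0107)). The call ended without KO 1 (adjusted p = 0.0594) or KO 3 (adjusted p = 0.0991). Ccl27a, a chemokine best known from skin (ENSMUSG00000073888, chromosome 4, 41769467 to 41774247, minus strand), was at 6.12 and 4.52 in KO, against 9.28, 8.17 and 9.24 in C. Its difference of -0.66 ± 0.20 (SE; limma, adjusted p = 0.0481) passed narrowly. It missed the threshold without any one KO or C library, with adjusted p of 0.0801 (KO 1), 0.345 (KO 3), 0.133 (C 1), 0.0879 (C 2) and 0.129 (C 3), with pseudocount 4 (0.0506), with no variance trend (0.0513) and after removal of the transcript length and GC trend (0.295). Ccl27a shares 8 annotated exon bases with Il11ra1 on the other strand, near-identical copies of both exist in the mouse genome, and the strand setting of the counting is not given, so their reads may have been split.

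The other CC chemokines did not pass in KO versus C by limma, while DESeq2 called Ccl11, and Ccl12 passed with the length and GC trend removed. Ccl2, the main monocyte attractant, was at 2.70 and 1.09 in KO, against 2.05, 3.22 and 1.58 in C (difference -0.21 ± 0.29 (SE; limma, adjusted p = 0.684)). Ccl21a, a lymphoid chemokine of lymphatic endothelium, was at 29.1 and 8.48 in KO, against 40.0, 26.2 and 27.1 in C (limma, adjusted p = 0.126). Its near-identical copy Ccl21b was at 8.56 and 2.65 in KO, against 19.6, 11.96 and 7.26 in C (limma, adjusted p = 0.371), and reads may be split between the pair. The KO value of Ccl21a turned on 1 library: without KO 1 the adjusted p was 0.0101.

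The 2 clusters of CC chemokine genes on chromosome 11 spread widely between the KO libraries. The first holds Ccl2, Ccl7, Ccl11, Ccl12 and Ccl8 within 81.2 kb, and the second holds Ccl5, Ccl9 and Ccl6 within 67.3 kb. KO 1 had the higher signal for Ccl7 (3.05, against 0.503 in KO 3), Ccl2, Ccl12 (2.50, against 1.02) and Ccl5 (1.71, against 0.711). KO 3 had the higher signal for Ccl6 (20.1, against 7.70 in KO 1) and Ccl9 (17.6, against 9.78). Ccl8, in the first cluster, differed little between the 2. Ccl12, a monocyte attractant of the mouse, was above C in both KO libraries (0.704, 0.693 and 0.154 in C; limma, adjusted p = 0.0980). Ccl11 (eotaxin) was at 0.0984 and 0.0520 in KO, against 1.74, 0.934 and 0.0927 in C, so that C 3 was as low as KO (limma, adjusted p = 0.243).

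**Figure D2:**
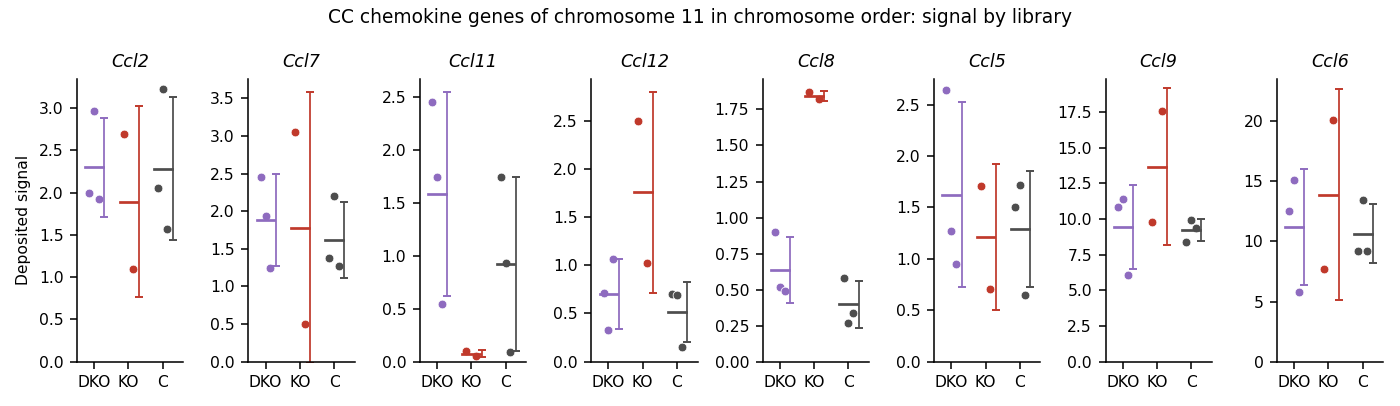
Deposited signal (vertical axis, each from 0) of the 8 CC chemokine genes of chromosome 11 in chromosome order, by group (DKO, KO, C). Points are libraries, lines means and bars SD cut off at 0; the KO libraries lie together for Ccl8, at 1.87 and 1.82, and apart for Ccl7, at 3.05 and 0.503, and for Ccl6, at 7.70 and 20.1.

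Among the 6 tested CXC and CX3C chemokines, 1 rose and 1 fell in KO (33.3% together, against 13.9% of all tested genes). Cxcl14, a chemokine of resting epithelia and connective tissue (ENSMUSG00000021508, chromosome 13, 56288643 to 56296551, minus strand), gave the largest decrease of all members: 0.728 and 1.02 in KO, against 13.9, 7.68 and 13.5 in C. The KO values rest on 18 and 29 reads, and the C values on 226, 127 and 218 reads. Both KO libraries were far below every C library, and mean signals were 13.3-fold lower in KO (difference -2.72 ± 0.38 (SE; limma, adjusted p = 0.00126)). Over the 20 alternatives its adjusted p ran from 9.94e-14 to 0.0180.

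Cx3cl1 (fractalkine), a membrane-bound chemokine of endothelium and other cells that holds cells bearing Cx3cr1 (ENSMUSG00000031778, chromosome 8, 94772009 to 94782427, plus strand), had 15.3 and 13.5 in KO, against 7.50, 5.58 and 6.33 in C. The groups were apart, and mean signals were 2.22-fold higher in KO (difference 1.05 ± 0.19 (SE; limma, adjusted p = 0.00445)). Its receptor gene Cx3cr1, a macrophage marker, was at 9.98 and 5.70 in KO, against 5.85, 5.88 and 5.84 in C, with KO 3 below all C libraries (limma, adjusted p = 0.333).

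Cxcl12, the ligand of Cxcr4 and Ackr3 and the member with the highest mean signal, did not pass. Its signal was 200.8 and 133 in KO, against 179.9, 147 and 160.4 in C, so the groups overlapped. The difference was 0.02 with a 95% interval of -0.54 to 0.57 (limma, adjusted p = 0.976). Cxcl9, an interferon-induced attractant of T cells, was at 3.76 and 3.07 in KO, against 8.79, 5.33 and 5.28 in C (difference -0.73 ± 0.23 (SE; limma, adjusted p = 0.0562)). The groups of Cxcl9 did not overlap, and it passed under 8 of the 20 alternatives. Cxcl16, a membrane-bound ligand that also binds oxidised lipids, was at 15.6 and 13.5 in KO, against 11.4, 7.93 and 10.7 in C (limma, adjusted p = 0.123). Cxcl1, a neutrophil attractant, was at 1.24 and 0.745 in KO, against 1.74, 1.48 and 0.834 in C (limma, adjusted p = 0.721). Cxcl10, another interferon-induced ligand, was below the level needed for a test, with signals of 0.0904 to 1.28.

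Of 6 interleukin genes, 1 fell and none rose past the threshold in KO (16.7%, near the 13.9% of all tested genes). Il15 supports NK cells and memory T cells and is made in muscle among other tissues (ENSMUSG00000031712, chromosome 8, 82331632 to 82403222, minus strand). Its signal was 5.53 and 7.68 in KO, against 13.4, 16.7 and 18.0 in C. The groups did not overlap, and mean signals were 2.43-fold lower in KO (difference -1.17 ± 0.24 (SE; limma, adjusted p = 0.00872)). The call ended only without KO 1 (adjusted p = 0.0925). Il15ra, which presents it, was at 13.2 and 14.7 in KO, against 12.8, 12.9 and 14.4 in C (limma, adjusted p = 0.858).

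Il33, an alarmin of the IL-1 family released by stromal cells, was at 5.45 and 3.28 in KO, against 2.05, 1.60 and 1.20 in C. Both KO libraries were higher, and the difference of 1.02 ± 0.40 (SE) did not pass (limma, adjusted p = 0.115), but it passed without DKO 3 (adjusted p = 0.0148), whose Il33 signal was 0.317, and with only KO and C fitted (0.0101). Its receptor Il1rl1 (ST2) was at 0.886 and 0.711 in KO, against 1.07, 1.24 and 2.32 in C (limma, adjusted p = 0.242). Il34, a ligand of the macrophage receptor Csf1r, was at 3.88 and 5.32 in KO, against 2.97, 2.56 and 2.13 in C (limma, adjusted p = 0.0965). Il1b, the inflammatory cytokine of macrophages, was low in all groups, at 0.728 and 0.364 in KO, against 0.704, 0.271 and 0.525 in C (limma, adjusted p = 0.944). Il16, a T cell attractant, was at 9.39 and 9.79 in KO, against 16.0, 9.25 and 12.9 in C, and Il17d at 4.39 and 3.73 in KO, against 4.68, 4.13 and 2.13 in C. Il6 and Il11 had no row in the deposited table, so they could not be analysed. They are among 90 of 150 protein-coding gene identifiers of GENCODE M21 that match the name rule and had no row. Some names recur among these identifiers, and further copies named Ccl21a and Ccl21b are included.

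Markers of other cells moved beside the ligands that fell. Skeletal muscle markers passed as lower in 9 of 10 genes in KO (median difference -3.92), although their summed signal, which includes Acta1 of cardiac muscle too, was 1565 to 2395 in KO, against 541 to 993 in C. The same markers passed as lower in 6 of 10 genes in DKO versus C (median difference -2.83), with sums of 74.9 to 869 in DKO, where Cxcl14, Il15 and Ccl24 did not pass. Of 8 adipocyte markers 3 had no row in the deposited table. Of the other 5, 2 passed as lower, with a summed signal of 531 to 559 in KO, against 906 to 1247 in C. Both KO libraries had 0 reads of the adipocyte markers Plin1 and Cidec, which allows a signal of up to 0.118 in KO 1 and 0.104 in KO 3. The part of these cells in the values of Cxcl14, Ccl24, Ccl11 and Il15 was not tested.

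Among 6 chemokine receptors, 1 rose in KO (16.7%, near the 13.9% of all tested genes). Ccr2, the receptor that brings monocytes out of the bone marrow and marks monocyte-derived macrophages (ENSMUSG00000049103, chromosome 9, 124101950 to 124113557, plus strand), had 6.55 and 3.69 in KO, against 1.74, 1.84 and 2.19 in C. Both KO libraries lay above C, and mean signals were 2.66-fold higher (difference 1.03 ± 0.31 (SE; limma, adjusted p = 0.0450)). The call ended without KO 1 (adjusted p = 0.333), KO 3 (0.0793), C 1 (0.118), C 2 (0.107) or C 3 (0.0852), with pseudocount 0.25 (0.0526), with quantile normalization (0.0522) and after removal of the length and GC trend (0.0540).

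Ccr1, a receptor for Ccl5 and other CC chemokines, was at 1.79 and 1.92 in KO, against 1.01, 1.42 and 0.340 in C (limma, adjusted p = 0.197). Cxcr4, the signalling receptor of Cxcl12, was at 8.44 and 8.23 in KO, against 6.15, 4.67 and 3.68 in C. The groups did not overlap, and the difference of 0.70 ± 0.30 (SE) did not pass (limma, adjusted p = 0.147), but it passed without DKO 2 (adjusted p = 0.0475). Ccr7, the lymph node homing receptor, was at 1.12 and 0.849 in KO, against 1.19, 0.934 and 1.02 in C.

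The sum of 14 macrophage markers was 477 to 494 in KO, against 349 to 382 in C, and 1 of the 14, C1qb, passed as higher by limma, while 8 had an unadjusted p under 0.05, edgeR called 3 and DESeq2 4 (Adgre1, C1qb, C1qc and Fcgr1). Of 10 monocyte and neutrophil markers, 6 had no row in the deposited table and only 4 could be tested. These 4 summed to 4.53 to 4.61 in KO, against 5.36 to 7.53 in C. Of them 0 passed by limma, 0 at an unadjusted p under 0.05 and 0 by edgeR or DESeq2. Of 7 tested T and NK cell markers 1 passed as higher, with a median difference of -0.10. The sums of these 7 were 18.7 to 24.0 in KO, against 10.2 to 17.2 in C. Of 7 B cell markers 0 passed, with sums of 12.7 to 28.6 in KO, against 23.2 to 38.1 in C. The part of these cells in the values of Ccr2, Ccl8 and the other leukocyte genes was not tested.

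The atypical receptors held the largest increase. Ackr2, which takes up inflammatory CC chemokines such as Ccl2 for degradation (ENSMUSG00000044534, chromosome 9, 121898355 to 121911074, plus strand), stood at 11.9 and 11.5 in KO, against 1.38, 1.42 and 1.51 in C. These are 301 and 331 reads in KO and 22, 23 and 24 reads in C, so within each group the libraries lay close together and the groups were far apart. Mean signals were 8.13-fold higher in KO, and the difference was 2.38 ± 0.21 (SE; limma, adjusted p = 0.000122). Over the alternatives its adjusted p ran from 2.43e-17 to 0.00527.

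Ackr4, which takes up Ccl21 and Ccl25 (ENSMUSG00000079355, chromosome 9, 104084157 to 104126933, minus strand), had 5.49 and 7.12 in KO, against 2.97, 3.10 and 1.20 in C. Both KO libraries were above C, and the difference was 1.14 ± 0.27 (SE; limma, adjusted p = 0.0169). Without KO 1 the adjusted p was 0.0606, and without KO 3 it was 0.167. Of its 5380 exon bases 479 lie opposite Acad11, which averaged 48.1 in KO and 60.2 in C (limma, adjusted p = 0.406). Ackr3, which takes up Cxcl12, was at 75.7 and 60.2 in KO, against 65.7, 63.1 and 65.6 in C (limma, adjusted p = 0.853). Ccrl2, which binds the attractant chemerin, was at 5.53 and 6.64 in KO, against 8.85, 6.66 and 8.99 in C (limma, adjusted p = 0.308).

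Of 22 interleukin receptor chains, 2 rose and 1 fell in KO (13.6% together, near the 13.9% of all tested genes). The 2 that rose, Il13ra1 and Il4ra, are the chains that pair in the type II receptor for IL-4 and IL-13. Il13ra1 (ENSMUSG00000017057, chromosome X, 36112110 to 36171259, plus strand) had 51.5 and 36.5 in KO, against 21.2, 23.2 and 18.8 in C. Both KO libraries were above every C library (mean signals 2.09-fold higher, difference 1.01 ± 0.22 (SE; limma, adjusted p = 0.0115)), and the call ended only without KO 1 (adjusted p = 0.127). Il4ra (ENSMUSG00000030748, chromosome 7, 125552120 to 125579474, plus strand) had 31.9 and 31.2 in KO, against 23.1, 20.5 and 17.5 in C. Its difference was 0.62 ± 0.18 (SE; limma, adjusted p = 0.0439). That call ended without KO 1 (adjusted p = 0.186), KO 3 (0.192), C 1 (0.0668), C 2 (0.109) or C 3 (0.152), with no variance trend (0.0614) and after removal of the length and GC trend (0.0875). Il2rg, the chain shared by IL-2, IL-15 and others, which can also pair with Il4ra, was at 17.3 and 14.8 in KO, against 12.5, 7.87 and 11.2 in C (limma, adjusted p = 0.178).

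Il11ra1, the receptor chain for IL-11 that signals with gp130 (ENSMUSG00000073889, chromosome 4, 41699989 to 41769474, plus strand), had the highest level per kilobase of all members and fell in KO. Its signal was 74.0 and 64.1 in KO, against 107.7, 107.6 and 104 in C, with a narrow spread in C (difference -0.62 ± 0.17 (SE; limma, adjusted p = 0.0311)). The call ended without KO 1 (adjusted p = 0.0838), KO 3 (0.230), C 1 (0.103), C 2 (0.100) or C 3 (0.0860). Il6st, the gp130 gene, was at 132 and 127 in KO, against 109.9, 94.5 and 88.1 in C (difference 0.41 ± 0.18 (SE; limma, adjusted p = 0.147)). Il6ra, the IL-6 chain, was at 3.44 and 4.80 in KO, against 3.21, 3.53 and 2.13 in C (limma, adjusted p = 0.354).

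The remaining receptor chains did not pass with all 8 libraries fitted. With only KO and C fitted, the chains Il10ra, Il2rg and Il6st passed as higher, as did Cxcl16, Cxcr4 and Il34. Il10ra also passed without DKO 2. Il1r1, the IL-1 receptor, was at 17.3 and 13.7 in KO, against 11.4, 11.96 and 14.1 in C (limma, adjusted p = 0.545). Il10rb, shared by the IL-10 family, was at 62.7 and 67.8 in KO, against 62.4, 59.5 and 53.0 in C (limma, adjusted p = 0.543). Il10ra, the ligand-binding chain for IL-10, was at 8.09 and 8.03 in KO, against 5.72, 5.27 and 5.65 in C (limma, adjusted p = 0.108). The IL-17 receptor genes Il17ra, Il17rc and Il17rd had signals of 5.56 to 14.2 in KO, against 4.23 to 13.9 in C. The lymphocyte chains Il2ra, Il2rb and Il21r stayed at 0.745 to 1.47 in KO, against 0.704 to 1.26 in C. Il3ra, the ligand-binding chain for IL-3, was at 11.4 in both KO libraries, against 11.7, 7.99 and 9.67 in C. Differences of the receptor chains as a group had a median of 0.25, with 17 of 22 above 0. Over all tested genes the median was 0.0082, with 50.7% above 0. Il18bp, which neutralises IL-18, was at 8.33 and 10.2 in KO, against 6.77, 6.06 and 6.46 in C (limma, adjusted p = 0.117).

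Fibroblast markers moved beside these receptors: 4 of 10 passed as higher in KO, with a summed signal of 1257 to 1626 in KO, against 585 to 844 in C. Of 10 epicardium markers 4 had no row in the deposited table. Of the other 6, 3 passed as higher, with sums of 29.5 to 31.7 in KO, against 8.84 to 14.3 in C. Of 10 endothelium markers 0 passed as higher and 1 as lower. Their sums were 1073 to 1178 in KO, against 1066 to 1470 in C. The part of these cells in the values of Il13ra1, Il4ra, Ackr2, Ackr4 and Cx3cl1 was not tested.

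**Figure D3:**
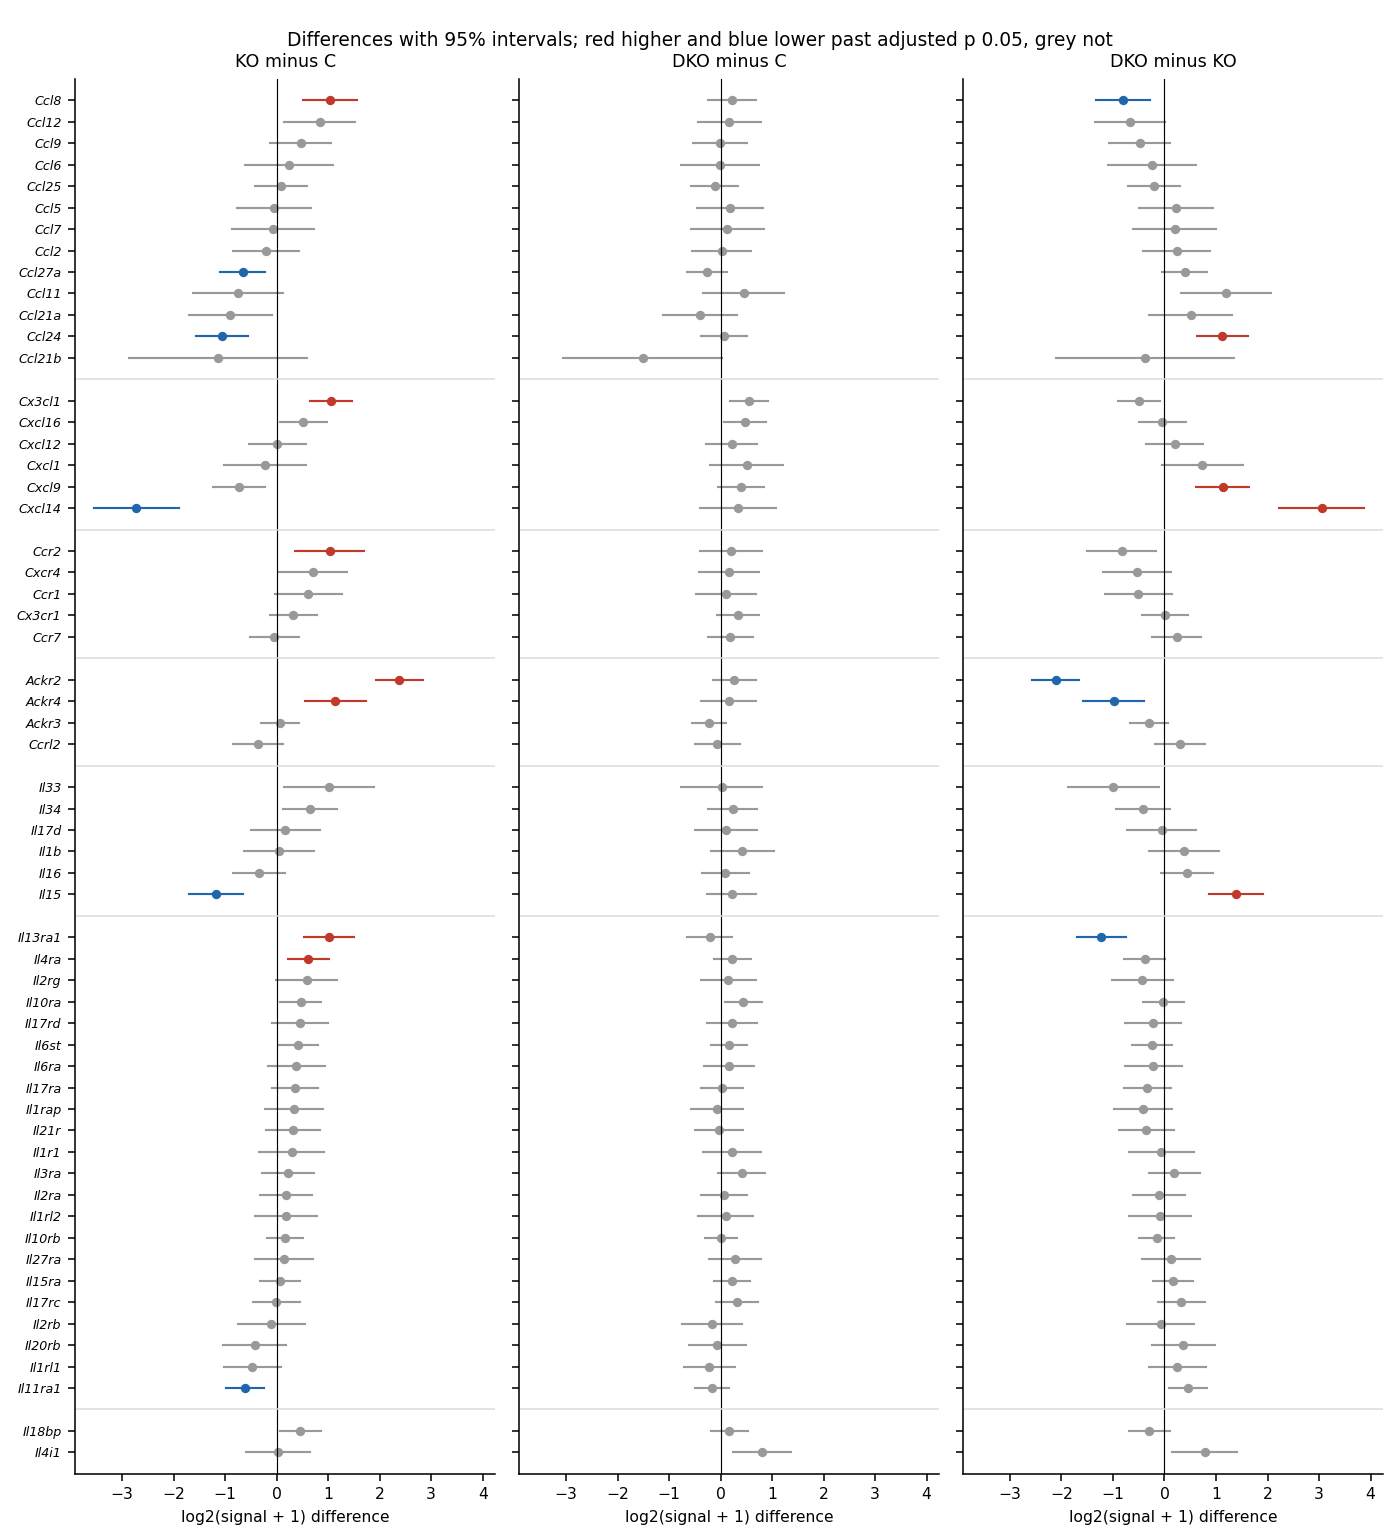
Differences of 58 of the 59 tested members on the log2(signal + 1) scale (horizontal axis), by role down the page, for KO minus C, DKO minus C and DKO minus KO. Points are estimates and lines 95% intervals, red for higher and blue for lower past the threshold; 12 members are coloured in KO minus C, 0 in DKO minus C and 8 in DKO minus KO.

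In the libraries labelled DKO, set against C, 0 of 59 members passed in either direction (0.155% of all tested genes passed, with 0.0738% higher and 0.0812% lower). At an unadjusted p under 0.05 there were 4 members, Il4i1, Cx3cl1, Cxcl16 and Il10ra, and edgeR and DESeq2 on the recovered reads called 0 each, as did limma with any 1 library left out. The median member difference was 0.16, with 43 of 59 above 0, against 0.0115 and 52.2% above 0 over all tested genes. All 3 DKO libraries lay above all C libraries in 4 members (6.5% of all tested genes) and below in 0 (7.25%). Il4i1, a secreted amino acid oxidase of immune cells, was at 2.00, 2.78 and 1.12 in DKO, against 0.582, 0.693 and 0.711 in C (difference 0.80 ± 0.26 (SE; limma, adjusted p = 0.491)). Of the 4080 exon bases of Il4i1, 3423 are shared with Tbc1d17 on the other strand, so its reads are uncertain.

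None of the 12 members called in KO versus C passed in DKO versus C. Ackr2 was at 1.45, 2.60 and 1.87 in DKO, against 1.38, 1.42 and 1.51 in C (difference 0.27, 95% interval -0.14 to 0.68; limma, adjusted p = 0.697). Cxcl14 was at 26.7, 13.6 and 8.21 in DKO, against 13.9, 7.68 and 13.5 in C (difference 0.33, 95% interval -0.40 to 1.07; limma, adjusted p = 0.789). Cx3cl1 was at 10.5, 11.2 and 8.33 in DKO, against 7.50, 5.58 and 6.33 in C, so that every DKO library was above C (difference 0.56 ± 0.17 (SE; limma, adjusted p = 0.452)). Il13ra1 was at 19.4, 13.4 and 22.3 in DKO, against 21.2, 23.2 and 18.8 in C (difference -0.21 ± 0.20 (SE; limma, adjusted p = 0.771)). Il4ra was at 21.8, 29.5 and 21.2 in DKO, against 23.1, 20.5 and 17.5 in C, and Il11ra1 at 105, 78.5 and 102 in DKO, against 107.7, 107.6 and 104 in C. Both overlapped C. Ccr2 was at 3.93, 2.31 and 1.296 in DKO, against 1.74, 1.84 and 2.19 in C, and Ccl27a at 6.73, 6.18 and 9.02 in DKO, against 9.28, 8.17 and 9.24 in C. These 4 genes, with Ackr4, Ccl8, Ccl24 and Il15, had differences of -0.26 to 0.23, with adjusted p of 0.691 to 0.943. A p that misses the threshold does not show that DKO and C were alike.

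Other members varied between the DKO libraries without a call. Cxcl12 was at 227, 222 and 131 in DKO, against 179.9, 147 and 160.4 in C. Its receptors overlapped C as well, with Cxcr4 at 5.17, 9.01 and 3.31 and Ackr3 at 50.8, 50.4 and 64.8 in DKO. Over all 60 members, the highest and lowest library differed by more than 2-fold in 21 members in DKO, against 15 in C. DKO 3 was the lowest of the DKO libraries for Il33 (2.69, 2.78 and 0.317 in DKO) and for Il1b (1.36, 1.56 and 0.317 in DKO). DKO 2 had 0 reads of Ccl21b, which allows a signal of up to 0.283, and 7.75 and 9.30 were seen in DKO 1 and DKO 3. Its partner Ccl21a did not share that drop, at 21.9, 21.2 and 26.2 in DKO. Ccl2 was at 2.00, 2.97 and 1.93, Ccl6 at 12.6, 15.1 and 5.79, and Ccl11 at 2.46, 1.75 and 0.547 in DKO.

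For the cytokine receptors and their partners, Il6st was at 131, 99.8 and 98.6 in DKO, against 109.9, 94.5 and 88.1 in C. Il10rb was at 61.9, 51.4 and 63.2 in DKO, against 62.4, 59.5 and 53.0 in C. Il6ra was at 3.93, 4.11 and 2.33, Il1r1 at 13.2, 24.4 and 9.77, and Il1rl1 at 1.03, 1.09 and 1.296 in DKO. None of these was apart from C. Cx3cr1 was apart, at 7.38, 7.97 and 7.58 in DKO, against 5.85, 5.88 and 5.84 in C, and did not pass (limma, adjusted p = 0.631). Il34 was at 4.11, 3.44 and 2.16, and Il18bp at 6.64, 8.82 and 6.71 in DKO, and both overlapped C.

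The difference between DKO and KO was tested directly. In DKO, set against KO, 4 of 59 members rose and 4 fell (13.6% together, against 11.8% of all tested genes, with 6.08% higher and 5.73% lower), a share near that of all genes. Cxcl14, Il15, Cxcl9 and Ccl24 rose, and Ccl8, Ackr4, Il13ra1 and Ackr2 fell. The median member difference was -0.07, with 25 of 59 above 0, against 0.0079 and 50.8% above 0 over all tested genes. All DKO libraries lay above both KO libraries in 12 members (20.5% of all tested genes) and below both in 10 (21.1%). This comparison shares its KO libraries with the first and its DKO libraries with the second, so the 3 are not independent. Without KO 1 the counts were 3 higher and 1 lower, without KO 3 they were 2 and 2, and without DKO 3 7 and 2.

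Among the ligands, Cxcl14 was at 26.7, 13.6 and 8.21 in DKO, against 0.728 and 1.02 in KO, 18.5-fold by mean signal (difference 3.05 ± 0.38 (SE; limma, adjusted p = 0.000867)). Il15 was at 25.9, 14.2 and 17.5 in DKO, against 5.53 and 7.68 in KO (difference 1.38 ± 0.24 (SE; limma, adjusted p = 0.00455)), and the call ended without KO 1 (adjusted p = 0.0564). Cxcl9, which missed the threshold in KO versus C, was at 9.68, 9.39 and 7.00 in DKO, against 3.76 and 3.07 in KO (difference 1.13 ± 0.23 (SE; limma, adjusted p = 0.0106)), and the call ended without KO 3 (0.117). For all 3 the groups were apart. Ccl24 was at 2.46, 2.12 and 1.47 in DKO, against 0.413 and 0.329 in KO (limma, adjusted p = 0.00971), and the call ended without KO 1 (0.0566) or KO 3 (0.0969). Ccl8 was at 0.896, 0.519 and 0.490 in DKO, against 1.87 and 1.82 in KO (limma, adjusted p = 0.0468). The Ccl8 call ended under 12 alternatives, among them edgeR (0.0580), DESeq2 (0.0536) and leaving out KO 1 (0.197), KO 3 (0.219), DKO 2 (0.0665), DKO 3 (0.0884), C 1 (0.0677), C 2 (0.0688) or C 3 (0.0653). Ccl11 was at 2.46, 1.75 and 0.547 in DKO, against 0.0984 and 0.0520 in KO, where both values are under the level of 3 reads. Its groups were apart, and it did not pass by limma (adjusted p = 0.0762) but did by edgeR and DESeq2.

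Among the receptors, Ackr2 was at 1.45, 2.60 and 1.87 in DKO, against 11.9 and 11.5 in KO (difference -2.11 ± 0.21 (SE; limma, adjusted p = 0.000240)). Ackr4 was at 3.01, 2.41 and 2.62 in DKO, against 5.49 and 7.12 in KO (limma, adjusted p = 0.0357). The Ackr4 call ended under 6 alternatives, among them leaving out KO 1 (0.102), KO 3 (0.270), DKO 2 (0.0637) or DKO 3 (0.0607), and pseudocount 0.25 (0.0522). Il13ra1 was at 19.4, 13.4 and 22.3 in DKO, against 51.5 and 36.5 in KO (difference -1.23 ± 0.22 (SE; limma, adjusted p = 0.00554)), and the call ended without KO 1 (adjusted p = 0.0705). In all 3 receptors every DKO library was below both KO libraries. Cx3cl1 (limma, adjusted p = 0.109), Ccr2 (0.101), Il4ra (0.184), Il11ra1 (0.107) and Ccl27a (0.217) did not pass between DKO and KO. Fibroblast markers passed as lower in 4 of 10 genes in DKO versus KO, with sums of 624 to 1314 in DKO, against 1257 to 1626 in KO. Epicardium markers passed as lower in 2 of 6 tested genes. Their sums were 10.4 to 17.6 in DKO, against 29.5 to 31.7 in KO, and did not overlap. Of 5 tested adipocyte markers 1 passed as higher, with sums of 636 to 1152 in DKO, against 531 to 559 in KO. The part of these cells in the values above was not tested.

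**Figure D4:**
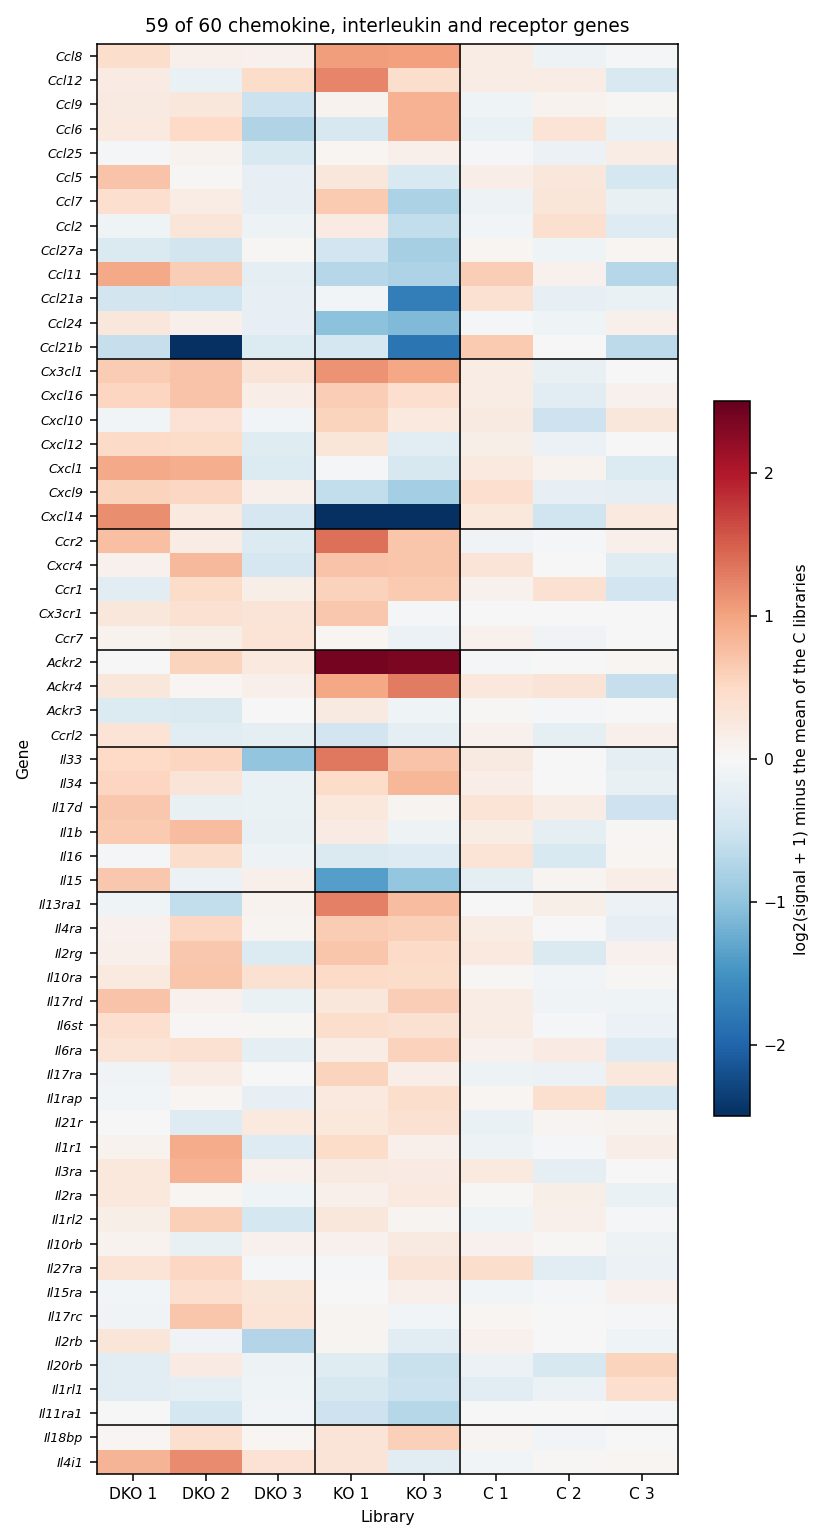
Level of 59 of the 60 members (rows, by role) in each library (columns, DKO, KO, C) as log2(signal + 1) minus the mean of the C libraries, with colours saturating at -2.5 and 2.5. Ackr2 stands out in red and Cxcl14 in blue in both KO columns, and the blue Ccl21b cell of DKO 2 is a value of 0 reads.

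Other genes of these pathways were counted from lists, beside 6.9% of all tested genes that passed as higher and 7.01% that passed as lower in KO versus C. Only tested genes are counted, since some listed genes had no row in the deposited table. Among 10 tested chemokine-related genes outside the name rule, 2 rose and 1 fell in KO. Cmklr1, the signalling receptor of chemerin, was at 12.7 and 17.8 in KO, against 5.23, 6.48 and 6.58 in C (limma, adjusted p = 0.00288). Rarres2, the chemerin gene, was at 78.3 and 35.9 in KO, against 28.6, 19.7 and 15.2 in C (limma, adjusted p = 0.0437). Both KO libraries of both genes were above C. Ppbp, a chemokine of platelets, was at 0.571 and 0.884 in KO, against 7.99, 6.90 and 4.48 in C (limma, adjusted p = 0.00249).

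Of 22 JAK, STAT and SOCS genes 4 rose and 0 fell in KO (against 6.9% and 7.01% of all tested genes), with a median difference of 0.22. Stat3, which acts below gp130, was at 124 and 136 in KO, against 56.6, 65.6 and 56.3 in C (limma, adjusted p = 0.00106). Socs3, a feedback inhibitor of that pathway, was at 24.2 and 7.92 in KO, against 3.46, 4.55 and 4.73 in C (limma, adjusted p = 0.0240). Socs2, which damps growth hormone signalling, was at 40.5 and 44.9 in KO, against 23.7, 18.1 and 22.3 in C (limma, adjusted p = 0.0113). All 3 were above C in both KO libraries, and the 2 KO libraries differed most for Socs3.

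Of 9 colony-stimulating factor genes 2 rose, Csf1 (66.4 and 49.1 in KO, against 28.2, 25.8 and 35.7 in C) and Csf2rb2 (5.41 and 3.73 in KO, against 1.19, 1.54 and 1.70 in C). Of 25 genes of IL-1 receptor and NF-κB signalling 0 rose and 0 fell by limma, with a median difference of 0.19, 2 had an unadjusted p under 0.05, and edgeR and DESeq2 called 0. Of 6 genes of IL-1 family processing 1 rose, the channel gene Panx1 (limma, adjusted p = 0.00792). Of 19 TNF superfamily genes 4 rose and 1 fell (against 6.9% and 7.01% of all tested genes). Tnfrsf9 (4-1BB), a co-stimulatory receptor, was at 13.4 and 13.95 in KO, against 0.0918, 0.151 and 0.0927 in C (limma, adjusted p = 4.46e-06). Fas, the death receptor, fell to 6.16 and 7.71 in KO, against 14.6, 16.2 and 12.6 in C (limma, adjusted p = 0.00590). In DKO versus C 0 genes of these 6 lists passed by limma, with 1 to 3 in each list at an unadjusted p under 0.05, while edgeR called 0 and DESeq2 1, Socs3. In DKO versus KO 1 rose and 9 fell over all 6 lists, which held 10, 22, 9, 25, 6 and 19 tested genes. Of all tested genes 11.8% passed in that comparison, with 6.08% higher and 5.73% lower.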

How the data were processed

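Per the submitters' processing notes, cutadapt, RSEM 1.3.1, limma and GRCm38 were used, with no role or order; the sources used here give neither the annotation nor the strand setting. The authors deposited 1 table of normalised signal. From the values, each signal is reads plus 0.5 over a TMM-scaled library size, on the CPM scale, and whole reads were recovered for 100% of values (tolerance 0.001 reads). Gene positions came from GENCODE M21 (13671 of 13677 identifiers matched), promoters from RefSeq.

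Genes with a signal of at least 1 in at least 2 libraries (13544, 59 of 60 members) entered a limma fit (version 3.58.1, R 4.3.3) of log2(signal + 1) with group means over 8 libraries, a variance trend, 5 residual degrees of freedom and two-sided Benjamini-Hochberg adjusted p. Alternatives were pseudocounts, filters, scalings, fewer groups, a replicate block, edgeR 4.0.16, DESeq2 1.42.0 and leaving out each library. Scripts were tested on simulated data. Replicates differed by more than counting noise (chi-square per gene 13.6 to 253).

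Members and lists were chosen with earlier results of these data known. Named were members past the threshold, the 8 highest per kilobase, the largest KO minus C difference of each role and a list of 17 genes; members named beyond these, such as Il4i1, Ccl11 and Cxcl16, were chosen after their values were seen. Of the members and of the pathway lists, 1 each is not reported here.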

Additional observations from a re-analysis of the deposited data

How the results depend on the processing

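Ackr2 and Cxcl14 passed under all 20 alternatives in KO versus C and in DKO versus KO, and Cx3cl1 in KO versus C. In KO versus C members higher ran from 2 to 9 and lower from 2 to 6 when 1 library was left out, and 14 were higher with only those groups fitted. In DKO versus KO higher members ran from 2 to 7 and lower from 1 to 5, and 2 were lower with pseudocount 0.25. With 1 library left out, the calls over all genes ran from 449 to 2966 in KO versus C (3606 with 2 groups fitted), from 4 to 90 in DKO versus C (69 with DESeq2) and from 334 to 1991 in DKO versus KO (730 with 2 groups fitted, 2217 with DESeq2). The cause was not tested.

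With the replicate number as a block, 8 members rose and 6 fell in KO versus C, Il33 (adjusted p = 0.0380) and Cxcl9 among them, and 4 rose and 3 fell in DKO versus KO, where Ackr4 (adjusted p = 0.0560) and Ccl8 (0.0965) missed the threshold and Il33 passed as lower. Deviations of same-numbered libraries correlated at -0.274 to 0.218, with 5 of 7 pairs above 0.1, and no label says what a number shares, so the numbers were not taken as pairs.

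Differences that changed sign were not past the threshold. Over the left-out libraries in KO versus C, Ccl6 ran from -0.40 to 0.88, Il1b from -0.13 to 0.21, Ccl2 from -0.62 to 0.20, Ackr3 from -0.10 to 0.22, Cx3cr1 from -0.032 to 0.68 and Cxcl12 from -0.28 to 0.31. With the length and GC trend removed Ccl2 was 0.078, Ackr3 -0.012 and Cxcl12 -0.12. In DKO versus C Ackr4 ran from -0.14 to 0.31, Ccr2 from -0.082 to 0.47, Ccl24 from -0.042 to 0.20 (-0.032 with quantile normalization), Il15 from -0.014 to 0.40 and Cxcl14 from -0.086 to 0.71. The 18 members with a mean signal under 2 rest on few reads, and changes of the size seen in Il4ra could be missed in them.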
